A study of Mus musculus with 8 samples.

Results

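A set of 9 genes labelled as direct responders to transforming growth factor beta (TGFb) was followed through an experiment on mouse skin fibroblasts. The experiment concerned the conversion of these cells into heart muscle-like cells. Whether the 9 genes respond directly was not tested here. They were Pmepa1, Ldlrad4, Skil, Tgif1, Tgfbi, Cthrc1, Lrrc15, Ltbp2 and Lox, picked by gene symbol as 9 of the 19505 distinct symbols that the array annotation names, and all 9 were found. For each symbol the transcript cluster (the group of probes that reads 1 gene) with the highest mean was to be used, and no member had more than 1. RNA was read on 8 Clariom S Mouse arrays, 1 culture an array, and every culture consisted of postnatal tail-tip fibroblasts (TTFs) that received retroviruses for GHMT, a mix of the cardiac transcription factors Gata4, Hand2, Mef2c and Tbx5. Compound or the solvent DMSO was added together with the virus. Set 1 of the fibroblasts (TTFs-1) gave an array for GHMT alone, for diclofenac (a blocker of cyclooxygenases, which make prostaglandin E2), for an antagonist of EP4 (a receptor of prostaglandin E2), and for diclofenac with prostaglandin E2 (PGE2) added back. Set 2 (TTFs-2) gave an array for GHMT alone, the EP4 antagonist, a TGFb inhibitor and a Wnt inhibitor. GHMT alone and the EP4 antagonist thus had 2 arrays each and the other treatments 1. The sources used here do not give doses, the time of harvest or the names of the antagonist and of the TGFb and Wnt inhibitors, and no fibroblasts without GHMT were among the samples, so every value is a level on top of GHMT.

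TGFb is secreted in a latent form bound to the extracellular matrix. Once released, it joins type II and type I receptors, which phosphorylate Smad2 and Smad3, and these enter the nucleus with Smad4 to switch genes on. In fibroblasts the response includes matrix proteins and the enzymes that cross-link them, and also proteins that turn the signal back down. Drugs that block the type I receptor are widely used to help fibroblasts take on a heart muscle fate.

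Values are on a log2 scale, where a difference of 1 is a 2-fold difference. The background level of the arrays was 5.73 to 5.99, taken as the 95th percentile of 23 background probe sets of each array, and between 43.7% and 45.73% of the 22206 transcript clusters lay above it. Array pairs from different sets correlated less well (r = 0.974 to 0.984 across clusters) than pairs within a set (0.986 to 0.995), so treatments were compared within a set. Of the markers of the labelled cell type, fibroblast genes had mean levels of 13.22 to 13.85 in every array. Fap, a marker of that list, was above background in 1 array only. Endothelial (7 of 7) and keratinocyte (7 of 7) markers were at background in all arrays, and so were 6 of 7 macrophage markers. Smooth muscle markers had mean levels of 9.86 to 10.84, with at most 7 of 8 above background in an array. Of 7 skeletal muscle markers 5 were at background in all arrays, while Acta1 and Ckm were above it in all 8. These are bulk samples, in which fewer cells of a type and less RNA per cell cannot be told apart.

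With the TGFb inhibitor, 7 of the 9 genes were lower than with GHMT alone by 2-fold or more once values at background were taken at the background level (1.67% of all clusters), and Tgif1 was not. Ldlrad4, the other gene, was lower by 2-fold on its measured value, which lay below background, so that measured values give 8 of 9. The median difference of the 9 was -2.34 on the log2 scale, against -0.01 over all transcript clusters. By measured values 2.52% of all clusters were lower by that much. Ranked from the most lowered of the 9400 clusters above background in both arrays, Cthrc1 stood at place 3, Pmepa1 at 5, Tgfbi at 10, Skil at 31, Lox at 79 and Ltbp2 at 87. Lrrc15 and Ldlrad4, at background with the TGFb inhibitor, have no place in that order. Each of these is a difference of 1 array from 1. The 9 genes were chosen with earlier results of these data known, so their counts, places and later test calls describe a chosen list. Tgif1, at place 3892, did not follow the label of a gene that answers to TGFb in these cultures.

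**Figure D1:**
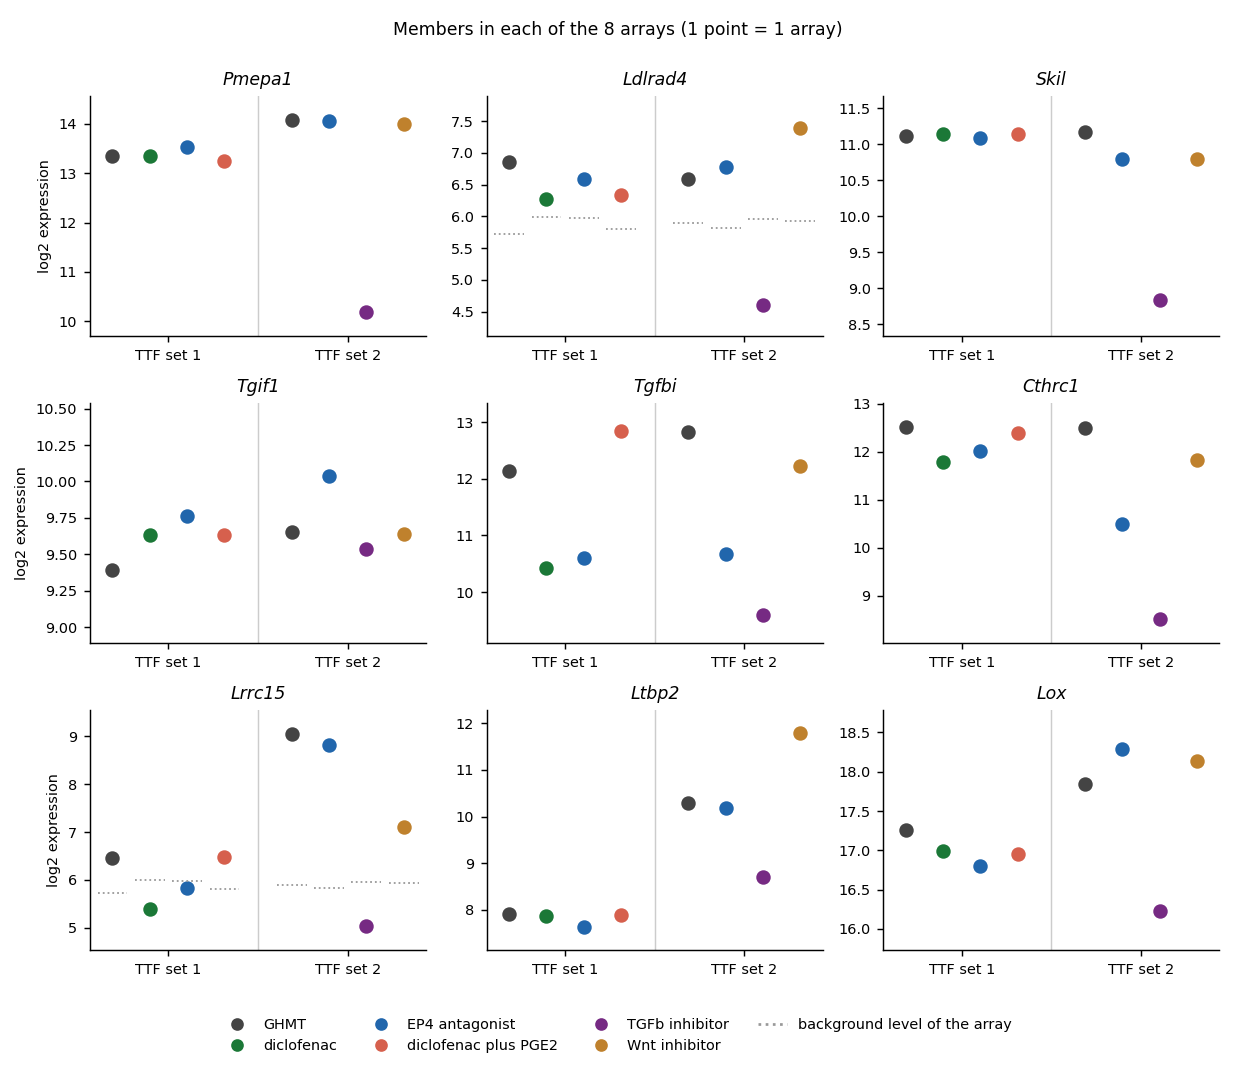
Level of each of the 9 genes on the log2 scale in each of the 8 arrays, with TTF set 1 on the left and TTF set 2 on the right of every panel and the background level of an array as a dotted line where it comes within range. The TGFb inhibitor array is the lowest of set 2 in all 9 panels, Tgfbi and Cthrc1 are also low with the EP4 antagonist, and Ltbp2 is highest with the Wnt inhibitor.

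Of the 9, 4 genes encode proteins that dampen the TGFb signal. Pmepa1 codes for a membrane protein that holds Smad2 and Smad3 away from the receptor. It read 13.35 with GHMT, 13.35 with diclofenac, 13.54 with the EP4 antagonist and 13.24 with diclofenac plus PGE2 in set 1. In set 2 it read 14.07 with GHMT, 14.05 with the EP4 antagonist, 10.19 with the TGFb inhibitor and 14.00 with the Wnt inhibitor. The TGFb inhibitor array alone stood apart, 3.88 lower than GHMT (14.72-fold), while the other 7 arrays lay between 13.24 and 14.07. Ldlrad4, a close relative of Pmepa1 with the same kind of Smad-binding site, was a weakly expressed gene on these arrays. Its levels in set 1 were 6.85 with GHMT, 6.27 with diclofenac, 6.59 with the EP4 antagonist and 6.33 with diclofenac plus PGE2. In set 2 they were 6.59 with GHMT, 6.78 with the EP4 antagonist, 4.61 with the TGFb inhibitor, which is at background, and 7.40 with the Wnt inhibitor. Against the background level of that array the loss with the TGFb inhibitor was at least 1.55-fold, so the measured difference of -1.98 passes 2-fold only on a value below background.

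Skil encodes SnoN, a repressor that sits on Smad complexes and is itself degraded and then made anew when TGFb arrives. In set 1 it was at 11.11, 11.14, 11.09 and 11.14 with GHMT, diclofenac, the EP4 antagonist and diclofenac plus PGE2. In set 2 the level was 11.17 with GHMT, 10.79 with the EP4 antagonist, 8.83 with the TGFb inhibitor and 10.79 with the Wnt inhibitor. Like Pmepa1 it was level across set 1 and 5.06-fold lower with the TGFb inhibitor. Tgif1, a homeobox repressor that binds Smad2, ranged only from 9.39 to 10.04 over the 8 arrays. It read 9.54 with the TGFb inhibitor and 9.65 with GHMT of that set, a difference of -0.11. Its highest level in each set was with the EP4 antagonist, 9.76 in set 1 and 10.04 in set 2.

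The other 5 genes encode secreted or cell-surface proteins of the matrix. Tgfbi, named for its induction by TGFb, is a secreted protein that links collagen to integrins. It read 12.14 with GHMT, 10.43 with diclofenac, 10.61 with the EP4 antagonist and 12.84 with diclofenac plus PGE2 in set 1. In set 2 it read 12.83 with GHMT, 10.67 with the EP4 antagonist, 9.60 with the TGFb inhibitor and 12.22 with the Wnt inhibitor. The arrays with diclofenac alone, the EP4 antagonist or the TGFb inhibitor were low, and the rest, diclofenac plus PGE2 among them, were high. Cthrc1, a secreted protein of collagen-producing fibroblasts, was at 12.52, 11.79, 12.02 and 12.39 in set 1 with GHMT, diclofenac, the EP4 antagonist and diclofenac plus PGE2. In set 2 it was at 12.50 with GHMT, 10.49 with the EP4 antagonist, 8.51 with the TGFb inhibitor and 11.83 with the Wnt inhibitor. With the TGFb inhibitor Tgfbi was 9.38-fold and Cthrc1 15.89-fold lower than with GHMT.

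Lrrc15, a membrane protein of TGFb-exposed fibroblasts, was near background in set 1 and well expressed in set 2. Its levels were 6.46 with GHMT, 5.39 with diclofenac, 5.84 with the EP4 antagonist and 6.48 with diclofenac plus PGE2 in set 1, of which those with diclofenac and the EP4 antagonist were at background. In set 2 they were 9.06 with GHMT, 8.83 with the EP4 antagonist, 5.03 with the TGFb inhibitor, at background again, and 7.11 with the Wnt inhibitor. The TGFb inhibitor value was at least 8.56-fold lower than GHMT. Ltbp2, a matrix protein of the family that anchors latent TGFb, although it does not itself bind TGFb, was at 7.91, 7.87, 7.64 and 7.89 in the 4 arrays of set 1. In set 2 it was at 10.28 with GHMT, 10.18 with the EP4 antagonist, 8.70 with the TGFb inhibitor and 11.79 with the Wnt inhibitor, so both inhibitors moved away from GHMT, in opposite directions. Lox, the enzyme that cross-links collagen and elastin, read 17.26, 16.99, 16.80 and 16.95 in set 1 and was 3.07-fold lower with the TGFb inhibitor (16.23) than with GHMT (17.85) in set 2. The EP4 antagonist array of set 2 had 18.29 and the Wnt inhibitor array 18.14.

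The sets themselves differed for some of these genes. Between the GHMT arrays, Lrrc15 was 2.60 and Ltbp2 2.37 higher in set 2 on the log2 scale, and the other 7 genes differed by -0.26 to 0.72. Differences of 2-fold or more between those arrays were found for 13.7% of all clusters, so 2 of 9 genes is not far from that background. In set 1 the GHMT level of Lrrc15, 6.46, was less than 1 above the background level.

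The TGFb and Wnt inhibitors each had 1 array, so a test needed a spread from elsewhere. A limma model over all 8 arrays, with the set as a block, took it from the GHMT and EP4 antagonist arrays and assumed that a lone array varies like them, with 1 residual degree of freedom before the spread was shared across clusters. For the TGFb inhibitor against GHMT it called 103 clusters, 0.464% of all, at a Benjamini-Hochberg adjusted p under 0.05. Of the 9 genes, 4 were among them, all lower: Lrrc15, Pmepa1, Tgfbi and Skil. Lrrc15 passed with an adjusted p of 0.0173 (limma), and since it was at background with the TGFb inhibitor its size is known only as at least 8.56-fold. Pmepa1 fell by 3.83 ± 0.27 (SE; adjusted p = 0.0178, limma). Tgfbi fell by 3.07 ± 0.31 (adjusted p = 0.0313, limma) and Skil fell by 2.25 ± 0.28 (adjusted p = 0.0460, limma). Cthrc1 had a difference as large as these but a wider error, -3.61 ± 0.49 (adjusted p = 0.0582, limma), and its difference between the EP4 antagonist and GHMT varied most between the sets. Ldlrad4 (at least 1.55-fold lower), Ltbp2 (-1.62 ± 0.26) and Lox (-1.85 ± 0.36) missed the threshold with adjusted p of 0.0617, 0.0896 and 0.133 (limma), and Tgif1 was at -0.12 ± 0.26. Without the block 0 of the 9 passed, with 3 clusters called over all. With a trended, robust prior (364 clusters called) or after quantile normalization (494 called) 8 did, all but Tgif1.

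**Figure D2:**
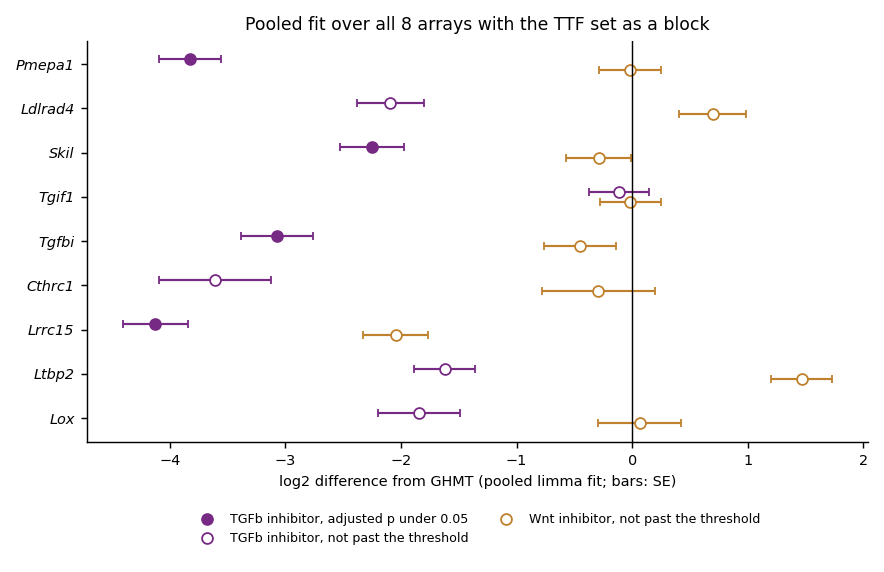
Estimated log2 differences from GHMT with their standard errors for the 9 genes, TGFb inhibitor in purple and Wnt inhibitor in brown, from the limma model over all 8 arrays with the TTF set as a block. Filled points passed an adjusted p of 0.05: Lrrc15, Pmepa1, Tgfbi and Skil with the TGFb inhibitor, and none with the Wnt inhibitor. The Lrrc15 and Ldlrad4 points of the TGFb inhibitor rest on values at background and are not measured sizes.

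The Wnt inhibitor array showed another pattern. Lrrc15 was 3.86-fold lower than with GHMT and Ltbp2 was 2.85-fold higher, while Pmepa1 (-0.07), Tgif1 (-0.01), Lox (0.29) and Skil (-0.38) lay near 0 on the log2 scale. Ldlrad4 was 0.81 higher, Cthrc1 0.67 lower (-0.67) and Tgfbi 0.61 lower (-0.61), each short of 2-fold. Thus 2 of 9 genes differed by 2-fold or more, against 4.1% of all clusters, and the median of the 9 was -0.07. In the limma model with the set as a block 27 clusters (0.122%) were called, all higher, and 0 of the 9 genes. Lrrc15 was at -2.05 ± 0.28 (adjusted p = 0.109, limma) and Ltbp2 at 1.47 ± 0.26 (adjusted p = 0.205, limma).

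**Figure D3:**
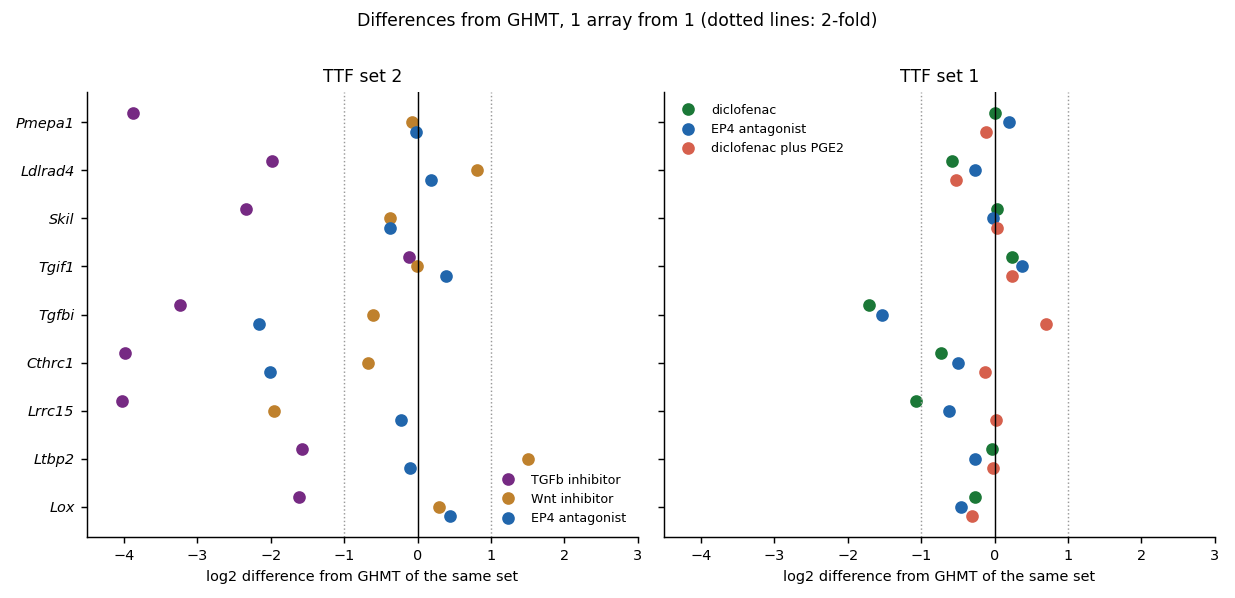
Log2 difference of each treated array from the GHMT array of the same TTF set, for the 9 genes, with set 2 on the left and set 1 on the right and dotted lines at 2-fold. With the TGFb inhibitor 8 genes lie left of the 2-fold line (Lrrc15 and Ldlrad4 on values at background), with the EP4 antagonist Tgfbi does so in both sets and Cthrc1 in set 2, and with the Wnt inhibitor Lrrc15 and Ltbp2 lie beyond the lines on opposite sides.

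Set against each other directly, the TGFb inhibitor array was lower than the Wnt inhibitor array by 2-fold or more for 8 of 9 genes, with 2.26% of all clusters lower by that much. The difference was -3.81 for Pmepa1, -3.32 for Cthrc1 and -2.62 for Tgfbi. Ltbp2 had one of the widest gaps of the 9, -3.09 (8.51-fold), since the inhibitors lay on either side of GHMT. For Ldlrad4 and Lrrc15, at background with the TGFb inhibitor, the gap was at least 2.71-fold and at least 2.22-fold. The limma model called 0 clusters here (1790 at an unadjusted p under 0.05), and the lowest adjusted p of the 9 genes was 0.0626, for Pmepa1 and for Ltbp2. With a trended, robust prior it called 146 clusters and 8 of the 9 genes, and after quantile normalization 229 clusters and 8 of the 9. Among the 10938 clusters above background in 1 or more arrays it called 65, with 4 of the 9 genes. Without the block it called 0 clusters and 0 of the 9.

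The EP4 antagonist was the treatment with an array in each set. Tgfbi was lower than with GHMT in both, by 1.53 (-1.53, 2.89-fold) in set 1 and by 2.16 (-2.16, 4.47-fold) in set 2. Cthrc1 was lower in both as well, but to unlike degrees, -0.50 in set 1 and -2.01 in set 2. In set 1, 1 of 9 genes was lower by 2-fold or more (0.784% of all clusters), and in set 2, 2 of 9 were (1.45% of all clusters). Of the genes that dampen the signal, Pmepa1 differed from GHMT by 0.19 and -0.02, Skil by -0.02 and -0.38 and Ldlrad4 by -0.26 and 0.19 in sets 1 and 2. Tgif1 was 0.37 and 0.39 higher. The gap between the sets' differences had a median of 0.33 and a 95th percentile of 1.11 over the 10707 clusters above background in these arrays. Cthrc1, with a gap of 1.51, was beyond that percentile, and the other 8 genes had gaps from 0.02 for Tgif1 to 0.90 for Lox. The limma test of 2 arrays against 2 called 0 clusters both when the block was left out (0.0%) and when it was kept (0.0%), with 144 and 1243 clusters under an unadjusted p of 0.05. With the block Tgfbi was at -1.85 ± 0.24 (adjusted p = 0.501, limma) and Cthrc1 at -1.26 ± 0.37 (adjusted p = 0.795, limma).

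In set 1 diclofenac was compared with the same GHMT array as the EP4 antagonist, so the comparisons share that control. Tgfbi was 3.27-fold lower with diclofenac, and Lrrc15 was lower by a measured -1.07, at least 1.38-fold since it lay at background with diclofenac. Cthrc1 was at -0.73, Ldlrad4 at -0.58, and Pmepa1, Skil and Ltbp2 were within 0.04 of GHMT on the log2 scale. By measured values 2 of 9 genes were lower by 2-fold or more, against 0.766% of all clusters, and with values at background taken at the background level 1 of 9 was, Tgfbi, against 0.329%. When PGE2 was added to diclofenac, Tgfbi was 5.31-fold higher than with diclofenac alone, at place 7 from the most raised of the 9552 clusters above background in both arrays. Lrrc15 was higher by 1.09 (at least 1.40-fold) and Cthrc1 by 0.60, and the other 6 genes differed by -0.11 to 0.06. By measured values these are 2 of 9 genes at 2-fold or more higher, against 0.847% of all clusters, and with values at background taken at the background level 1 of 9, Tgfbi, against 0.554%. Against GHMT alone, diclofenac plus PGE2 differed by 0.70 for Tgfbi and by -0.52 for Ldlrad4, and 0 of 9 genes reached 2-fold (1.81% of all clusters). Fibroblast and cardiac genes also differed between these arrays. Of 9 fibroblast markers 2 were lower by 2-fold or more with diclofenac (median -0.87), 3 with the EP4 antagonist of set 1 (median -0.72) and 2 with that of set 2 (median -0.11), and 0 were higher in these. Of 8 cardiac muscle genes 6, 5 and 5 were higher in the same order, with medians of 1.73, 1.40 and 1.44. With diclofenac plus PGE2 against diclofenac, 2 fibroblast markers were higher (median 0.44) and 5 cardiac genes lower (median -2.30). Their part in the values of Tgfbi, Cthrc1 and Lrrc15 was not tested. The model over all arrays called 0 clusters in each of these contrasts (0.0%, with 974 for diclofenac against GHMT, 1041 for diclofenac plus PGE2 against diclofenac and 932 for diclofenac plus PGE2 against GHMT at an unadjusted p under 0.05).

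Pooling the arrays by whether PGE2-EP4 signalling was inhibited (diclofenac and both EP4 antagonist arrays) or active (both GHMT arrays and diclofenac plus PGE2) gave 3 against 3 arrays of unlike treatments. Tgfbi spanned 10.43 to 10.67 in the inhibited arm and 12.14 to 12.84 in the active arm. Cthrc1 spanned 10.49 to 12.02 and 12.39 to 12.52. These were the 2 of 9 genes whose arms did not overlap, both lower, as were 3.09% of all clusters. The arms of the other 7 overlapped, Pmepa1 for example at 13.35 to 14.05 against 13.24 to 14.07. When the block was left out limma called 0 clusters (0.0%), with 469 under an unadjusted p of 0.05, and Tgfbi was at -2.03 ± 0.25 with an adjusted p of 0.224. With the TTF set as a block it called 84 (0.378%), of which 1 was a member, Tgfbi, at -2.03 ± 0.20 (adjusted p = 0.00856, limma). The call was kept without the GHMT array of set 1 and without diclofenac plus PGE2. It was lost without the diclofenac array (adjusted p = 0.0735, limma), the EP4 antagonist array of set 1 (0.0714) or either array of set 2 (0.105). Leaving out either array of set 2 gave the same fit. The block takes up the array left alone in that set, so the test then rests on set 1 only. Cthrc1 was at -1.04 ± 0.27 and Lrrc15 at -0.65 ± 0.19 with the block, with adjusted p of 0.206 and 0.296 (limma). For Lrrc15, 2 of the 3 inhibited arrays were at background.

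RefSeq promoter sequences (GRCm38.p6) were at hand for 4 of the 9 genes, Tgfbi, Lrrc15, Ltbp2 and Tgif1. The first 3 are shown because they were lower with the TGFb inhibitor and then parted with the other treatments. Tgfbi was low with the EP4 antagonist and with diclofenac alone, Lrrc15 was low and Ltbp2 high with the Wnt inhibitor. Each line gives the 250 bases before the start site in the direction of the gene, from chr13:56609336-56609585 (plus strand) for Tgfbi, chr16:30283255-30283504 (minus strand) for Lrrc15 and chr12:84876492-84876741 (minus strand) for Ltbp2. Capitals mark CAGAC on either strand (GTCTG on the other), the short sequence that Smad3 and Smad4 bind, and TGANTCA, the site of AP-1 factors, on either strand.
Tgfbi: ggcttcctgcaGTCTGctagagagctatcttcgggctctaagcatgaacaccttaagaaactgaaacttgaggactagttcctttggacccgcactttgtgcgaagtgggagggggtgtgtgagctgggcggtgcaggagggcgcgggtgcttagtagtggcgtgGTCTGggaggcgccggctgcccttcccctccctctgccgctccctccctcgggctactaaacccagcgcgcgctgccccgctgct
Lrrc15: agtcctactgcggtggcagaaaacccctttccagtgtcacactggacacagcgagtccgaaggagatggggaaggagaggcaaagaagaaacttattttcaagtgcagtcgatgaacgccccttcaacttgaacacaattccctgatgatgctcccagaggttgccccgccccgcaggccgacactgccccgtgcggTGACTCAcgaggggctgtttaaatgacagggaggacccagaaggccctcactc
Ltbp2: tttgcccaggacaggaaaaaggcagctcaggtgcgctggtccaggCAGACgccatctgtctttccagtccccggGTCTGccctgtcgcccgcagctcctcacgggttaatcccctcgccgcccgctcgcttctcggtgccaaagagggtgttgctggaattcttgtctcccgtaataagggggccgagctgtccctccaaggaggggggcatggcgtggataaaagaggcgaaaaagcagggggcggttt
Tgfbi held CAGAC in 2 places, whose first bases were 239 and 85 bases before the start. Ltbp2 held 2 as well, 205 and 176 bases before it. Lrrc15 held 0 CAGAC and 1 TGANTCA, 53 bases before its start. Tgif1, the gene that was level with the TGFb inhibitor, has 5 start sites in the table with 1, 2, 0, 1 and 0 CAGAC. The motif CAGAC was present in 42.2% of the 32851 mouse promoters of this length, the doubled form GTCTAGAC in 0.167% and TGANTCA in 6.75%, and none of the printed sequences held GTCTAGAC. The matches describe these letters in these windows only.

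The rest of the pathway was read from lists. Of 27 other genes known as TGFb targets, 10 were lower and 1 higher by 2-fold or more with the TGFb inhibitor, by measured values. The other 16 were within 2-fold, and 4 of these were at background in both arrays, where a fall could not show. With values at background taken at the background level 9 were lower. Over all clusters 2.52% were lower by measured values and 1.67% with values at background taken at that level. Both these 27 and the 9 were chosen with earlier results of these data known, so the gap between their medians is a description only. The median difference of the 27 was -0.20, beside the -2.34 of the 9. Among those of the 27 above background in both arrays the largest differences were in Col1a2 (-2.81), a chain of type I collagen, and Fn1 (-2.50), fibronectin. Il11, a cytokine of activated fibroblasts, went from 6.76 to background (at least 1.74-fold lower), and Id1, which bone morphogenetic proteins raise, was 2.06 higher. In the limma model Fn1 was the 1 gene of this list past the threshold, falling by 2.40 ± 0.28 (adjusted p = 0.0396, limma). Acta2 (-0.04), the actin of contractile myofibroblasts, Thbs1 (-0.17) and Smad7 (0.11), the inhibitory Smad, were next to 0. Smad7 read 6.02 with GHMT and 6.13 with the TGFb inhibitor, close to the background levels of 5.90 and 5.96, so a fall could hardly show. Acta2 (18.36 and 18.32) and Thbs1 (18.91 and 18.74) lay high on the scale in the same arrays. These genes were named after their values were seen.

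Genes that make, release or receive TGFb form the next lists. Of 14 genes for ligands and their release, Tgfb1 was lower (-1.56), and 12 were within 2-fold. Itgb8, part of an integrin that frees latent TGFb, was at background with GHMT and at least 1.65-fold higher with the TGFb inhibitor. Of 10 receptor and Smad genes, 9 were within 2-fold, among them Smad3 (0.48) and Smad2 (-0.36). The other was Tgfbr3, betaglycan, a co-receptor that presents ligand. It read 12.19 with GHMT, 11.88 with the EP4 antagonist, 14.88 with the TGFb inhibitor and 13.35 with the Wnt inhibitor. In the limma model Tgfbr3 rose by 2.56 ± 0.30 with the TGFb inhibitor (adjusted p = 0.0396, limma). Of 12 genes for pathway inhibitors, Dcn, the matrix protein decorin that binds TGFb, was higher (1.15) and 11 were within 2-fold, with Fstl3 at -0.78 and Smad6 at 0.70.

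Relatives of the 9 genes were read in the same way. With the TGFb inhibitor 1 of 10 was lower by 2-fold or more: Postn, the closest relative of Tgfbi, went from 11.28 to 8.64 (-2.64). The lysyl oxidase relatives Loxl4 (-0.97), Loxl3 (-0.42) and Loxl1 (0.58), the latent TGFb-binding proteins Ltbp1 (-0.79), Ltbp4 (-0.52) and Ltbp3 (0.06), Ldlrad3 (-0.60), Tgif2 (-0.37) and Ski (-0.03), the relative of Skil, were within 2-fold. With the Wnt inhibitor 1 of 10 was higher by 2-fold or more, Ldlrad3 (1.00), and 0 were lower. Loxl3 was at 0.91 and Loxl4 at -0.88. Ltbp3 was at 0.87, Ltbp1 at 0.42 and Ltbp4 at -0.17 with the Wnt inhibitor, beside the 1.51 of Ltbp2. In that array 3 of 27 other TGFb targets were higher and 2 lower by 2-fold or more (1 lower with values at background taken at the background level). They included Id1 (1.94), Cnn1 (-1.66) and Snai2 (1.44), and Comp, at background with GHMT, was at least 3.47-fold higher. In the limma model 0 genes of the pathway lists passed.

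**Figure D4:**
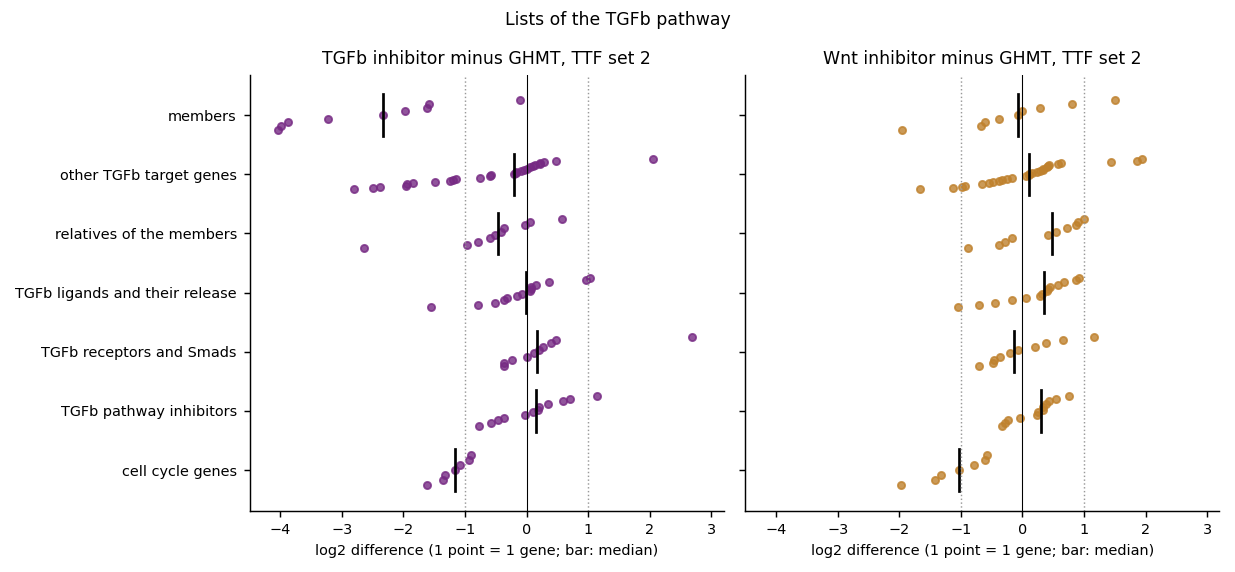
Log2 difference from GHMT in set 2 of every gene of 7 lists, TGFb inhibitor on the left and Wnt inhibitor on the right, with a black bar at each list's median and dotted lines at 2-fold. The 9 genes have a median of -2.34 with the TGFb inhibitor and -0.07 with the Wnt inhibitor, and the cell cycle genes have medians of -1.16 and -1.03.

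Of 7 cell cycle genes 5 were lower by 2-fold or more with the TGFb inhibitor and 4 with the Wnt inhibitor, and 0 passed the limma model in either contrast. Their mean level was 9.98 with GHMT, 9.41 with the EP4 antagonist, 8.78 with the TGFb inhibitor and 8.88 with the Wnt inhibitor in set 2. In set 1 it was 9.57 with GHMT, 9.11 with diclofenac, 9.22 with the EP4 antagonist and 9.82 with diclofenac plus PGE2. Their part in the values of the 9 genes was not tested. With the TGFb inhibitor 3 of 8 smooth muscle markers were lower, and of 9 fibroblast markers 3 were higher and 3 lower by 2-fold or more. The 3 lower fibroblast markers, Col1a1, Col1a2 and Col3a1, were already counted among the lower TGFb targets. So were Cnn1 and Tagln of the smooth muscle markers. Dcn, a higher fibroblast marker, was counted among the pathway inhibitors. Of 8 cardiac muscle genes 6 were higher by measured values with the TGFb inhibitor (median 1.65) and 6 with the Wnt inhibitor (median 2.23), or 4 and 5 with values at background taken at the background level. Myl7, an atrial myosin light chain, rose by 3.52 ± 0.28 with the TGFb inhibitor (adjusted p = 0.0226, limma) and was the 1 cardiac gene called there, with 0 called for the Wnt inhibitor.

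Genes most like the 9 were sought by Pearson correlation of their differences from GHMT with the mean difference of the 9, over the 6 treated arrays and among 3076 candidates. That mean, in which values at background stand as measured, was -2.53 with the TGFb inhibitor, -0.46 with diclofenac, -0.34 and -0.43 with the EP4 antagonist in sets 1 and 2, -0.12 with the Wnt inhibitor and -0.01 with diclofenac plus PGE2. The 6 highest were Adam12 (r = 0.990), Fam3c (0.990), Fn1 (0.987), Rcn3 (0.986), Sec24d (0.985) and Fam20a (0.983). Their differences with the TGFb inhibitor ran from -1.16 for Sec24d to -3.94 for Fam20a, with Adam12 at -3.17. The points share their GHMT arrays, and the TGFb inhibitor array lies far from the other 5, so the ranking is a description of that array more than of the rest.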

How the data were processed

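RNA of 8 cultures was hybridised to 1-colour Clariom S Mouse arrays. The deposited log2 values were made by the authors with SST-RMA in Affymetrix Expression Console 1.4, per the submitters' processing notes and design text. The sources used here do not state whether both sets were normalized together or the annotation build, and cluster positions are left out. Of 28846 rows, 6640 were control probe sets. A symbol was joined to 19572 of 22206 transcript clusters through the platform annotation, and 2634 are unnamed here. Limma 3.58.1 in R 4.3.3 (lmFit and eBayes, two-sided, Benjamini-Hochberg adjusted p under 0.05 over all clusters) tested the EP4 antagonist against GHMT and inhibited against active signalling, without the block, and a model over 8 arrays with the TTF set as a block. Scripts were tested on simulated data. A fold against a value at background is a bound against the background level ("at least"). The replicate number is the TTF set in the titles. It was taken to pair arrays because, across clusters, the departures of the GHMT array and the EP4 antagonist array of a set from their means correlated (r = 0.724) and arrays correlated better within sets. The labels do not say that arrays are separate experiments, so p-values measure only the spread between these samples. Named genes are the 9 members, up to 4 genes with the largest differences a list, the relatives and the 6 likest genes. Acta2, Thbs1 and Smad7 were added after their values were seen. The members and lists (14 lists, 142 of 147 entries matched) were chosen with earlier results of these data known. Alternatives were quantile normalization, a trended and robust prior, a filter on background, 1.5-fold in place of 2-fold, other blocks and leaving out arrays.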

Additional observations from a re-analysis of the deposited data

Results flagged for a closer look

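For 3 of the 9 genes the EP4 antagonist differed from GHMT in opposite directions in the sets, with 1 array against 1 in each. Lox was 0.46 lower in set 1 (-0.46) and 0.44 higher in set 2, a difference between the sets of -0.90. Ldlrad4 was at -0.26 and 0.19, a difference of -0.45. Pmepa1 was at 0.19 and -0.02, a difference of 0.21, below the median gap of 0.33 between the sets over the clusters above background. All 3 gaps were below the 95th percentile of 1.11 over those clusters. Cthrc1, with a gap of 1.51, was beyond it but lower in both sets. How many of all clusters changed direction between the sets was not counted, so the 3 of 9 have no share beside them. These differences between sets were not tested.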

How the results depend on the processing

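Of the 9 genes, 8 were lower with the TGFb inhibitor in all settings of the model, and what changed was how many passed the test. Clusters called were 3 (no replicate block), 364 (trended, robust prior), 494 (quantile normalization) and 206 (above background in 1 or more arrays), with 0, 8, 8 and 6 of the 9 genes among them. For the Wnt inhibitor they were 4, 119, 199 and 50 in that order, with 0, 1, 2 and 0 of the 9 genes. TGFb against Wnt inhibitor gave 0 (no replicate block), 146 (prior), 229 (quantile) and 65 (filter). In these contrasts the counts with the filter on background are out of 10938 clusters and the others out of 22206. Diclofenac against GHMT gave 1 (prior) and 4 (quantile), with 0 of the 9 genes in either. Diclofenac plus PGE2 against diclofenac gave 12 and 50, with 0 and 1 of the 9 genes, the 1 being Tgfbi. Signs turned for values near 0: without the block Tgif1 was at 0.02 with the TGFb inhibitor and 0.12 with the Wnt inhibitor and Pmepa1 at 0.29 with the Wnt inhibitor (0.04 after quantile normalization). For diclofenac plus PGE2 against GHMT, the fit without the block gave -1.28 for Lrrc15 and -1.21 for Ltbp2, the genes that differ most between sets. After quantile normalization Lox was at 0.01 for diclofenac and 0.08 for the EP4 antagonist, with and without the block.

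The EP4 antagonist against GHMT gave 8 clusters with the replicate block and the prior, 23 with the block and quantile normalization, 1 with the block and the filter, and 1 to 25 without 1 array; Tgfbi was called in the first 2 of these. Inhibited against active signalling gave 84 with the replicate block, 143 with the prior, 80 with quantile normalization and 110 with the filter. The filter left 10823 clusters to test there and 10707 for the EP4 antagonist. When 1 array was left out the counts were 0 to 192 with the block (192 without GHMT of set 1, 17 without diclofenac plus PGE2). Without the block they were 0 to 3. At 1.5-fold in place of 2-fold the counts of clusters were 3669 (TGFb inhibitor), 3706 (Wnt inhibitor), 3443 (between them), 2845 and 2303 (EP4 antagonist, sets 2 and 1), 2413 (diclofenac), 2323 (diclofenac plus PGE2) and 2315 (diclofenac plus PGE2 against diclofenac).

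Leaving out 1 array turned signs in the EP4 antagonist test for Pmepa1 (-0.27 to 0.44), Lrrc15 (-1.92 to 1.07), Ltbp2 (-1.46 to 1.08), Ldlrad4 (-0.17 to 0.10) and Lox (-0.76 to 0.73), and in the inhibited against active test for Pmepa1 (-0.11 to 0.35), Lrrc15 (-1.72 to 0.22), Ltbp2 (-0.94 to 0.66), Ldlrad4 (-0.17 to 0.14) and Lox (-0.46 to 0.29; with the block -0.02 without diclofenac plus PGE2 and -0.21 without either array of set 2). In the EP4 antagonist test these fits had no block, so with 1 array left out they compared arrays across the sets. The ranges of the other test take in fits with and without the block. Within sets 1 and 2 Lrrc15 was at -0.62 and -0.23 with the EP4 antagonist, and Ltbp2 at -0.27 and -0.10. Pmepa1, Ldlrad4 and Lox differed in sign between the sets themselves. The cause of the changes in sign was not tested. Using the lower-mean cluster of a symbol gave no value, since no member has more than 1, and leaving out a GHMT or EP4 antagonist array leaves the model over 8 arrays, and the EP4 test with the block, without residual degrees of freedom. The filters on background with the block and the contrast of diclofenac plus PGE2 with diclofenac in the model were added after seeing the data. Lrrc15 and Ldlrad4, at or near background in some arrays, have the least certain sizes.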
